A study of Mus musculus with 8 samples.

Results

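Glycolysis and hypoxia response genes were analyzed in tumor-associated macrophages (TAMs) with and without miR-21. They are 35 genes listed by symbol, all 35 of which were found among the 53247 genes of the deposited table and had a level high enough to be tested. They comprise 2 regulators, 3 transporters, 18 glycolytic enzymes, 3 glycolysis regulators and 9 hypoxia-inducible factor (HIF) response genes. TAMs were sorted by surface staining for CD45, CD11b, MHC II and F4/80 from LLC tumors (a Lewis lung carcinoma line of the mouse) grown under the skin for 14 days. The 4 WT and the 4 miR-21-/- samples came from C57/BL6 mice given as 10 weeks old, and thus 8 weeks old at implantation. The miR-21-/- mice carry a germline deletion, so that all host cells lacked miR-21, while the implanted LLC line was the same in both groups. The paper reports that LLC tumors of miR-21-/- mice were smaller, with less vasculature and more dying cells. It also reports that they held fewer TAMs, with higher surface MHC II, a marker of the sort. Such differences between tumors cannot be told apart here from the genotype of the TAMs. For miR-21-/- replicate 1 the title holds 2 sample numbers joined by a hyphen, and whether mice were pooled for it is not given in the sources used here.

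Glycolysis turns glucose into pyruvate in a chain of cytosolic enzymes, and lactate dehydrogenase and the monocarboxylate transporters then dispose of pyruvate as lactate. When oxygen is short, prolyl hydroxylases no longer mark HIF-1α for degradation, and HIF-1α with its partner ARNT binds short elements with the core sequence ACGTG or GCGTG near genes for glucose uptake, glycolytic enzymes, mitophagy and its own hydroxylases. In macrophages, HIF-1α and glycolysis are also known to be induced by inflammatory stimuli in the presence of oxygen.

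The values were taken to be counts per 1e+06 reads (CPM), and the columns summed to 788099 to 807758. The most frequent low value of a sample was taken as that of 1 read. It gave a depth of 20200000 to 33400000 reads per sample, lowest in WT replicate 3. A single read thus equals 0.03 to 0.0495 CPM, and the least expressed of the 35 genes, Eno2, still rested on more than 3 reads in each sample. The 11 macrophage markers summed to 10255 to 11485 CPM in WT and 9552 to 10994 CPM in miR-21-/- samples. Of these markers, Cd68 (590 to 718 CPM) and C1qa (955 to 1209 CPM) overlapped between the genotypes, Fcgr1 was higher in miR-21-/- TAMs without overlap (log2 fold change 0.75; limma, adjusted p = 0.000561), and Adgre1 (-0.38; adjusted p = 0.0014) and Csf1r (-0.48; adjusted p = 0.00538) were at lower values without overlap. Epcam, a carcinoma cell marker, was at most 0.132 CPM, and 3 of the 7 carcinoma cell markers averaged over 1 CPM, with Krt8 at 9.41 to 12.8 CPM in WT and 6.62 to 9.13 CPM in miR-21-/- samples. Transcripts of other cells moved with genotype: the 6 red blood cell markers summed to 93.3 to 214 CPM in WT and 24.3 to 34.7 CPM in miR-21-/- samples, the 6 fibroblast markers to 60.7 to 137 and 10.1 to 44.1 CPM, the 9 neutrophil markers to 823 to 1238 and 608 to 789 CPM, the 7 carcinoma cell markers to 20.4 to 26.7 and 14.2 to 19.1 CPM, and the 5 B cell markers, of which Cd79b alone averaged over 1 CPM, to 11.4 to 17.6 and 3.84 to 11.3 CPM. In the other direction, Cd8a was at 1.32 to 2.19 CPM in WT against 2.8 to 11.6 CPM in miR-21-/- samples and Clec9a, a dendritic cell marker, at 2.3 to 2.74 against 4.18 to 14 CPM, while the sums of the T and NK cell and of the dendritic cell markers overlapped. Of the 7 dendritic cell markers, 2 had a positive and 5 a negative log2 fold change, with a median of -0.19 and Cd209a at -1.28. Of the 8 neutrophil markers tested, 7 had a negative log2 fold change, while Ly6g was at 0.31 with overlap between the genotypes. The part of these transcripts of other cells in the results below was not tested. In these bulk samples, fewer cells of a type and less RNA per cell cannot be told apart. Mir21a was listed at 0.0001 CPM, the value of a gene without reads, in all 8 samples and thus did not check the labels. Vmp1, which overlaps Mir21a, was at 115 to 133 CPM in WT against 373 to 426 CPM in miR-21-/- TAMs.

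Of the genes past the threshold, the glycolytic enzymes were higher and the HIF response genes lower in miR-21-/- TAMs, and this difference between the classes was not tested. In miR-21-/- TAMs, Hif1a, which encodes the oxygen-regulated subunit HIF-1α, rose 2.05-fold, and the enzymes Hk3, Pkm and Pfkp rose 2.92-, 1.61- and 1.51-fold, as ratios of mean CPM. The HIF response genes Ddit4 and Ankrd37 fell, with miR-21-/- means at 0.346 and 0.632 of the WT mean. The other 29 genes did not pass the threshold, a limma p adjusted by Benjamini-Hochberg of at most 0.005 together with a fold change over 1.5. Thus 4 of 35 genes were higher and 2 lower, where 2.89% of the 13850 genes tested were higher, 4.23% lower and 7.12% past the threshold in either direction. The call rate of the 35 was 17.1%. At an adjusted p of 0.05 in limma with no fold limit, 14 of the 35 were higher and 5 lower, where 9.49% and 26.5% of all genes tested were. Their median log2 fold change was 0.21, beside -0.10 over all genes tested. That offset of all genes depends on scaling. Rescaling by the median of ratios moved it by 0.10 to 0.00, and then 6 of the 35 genes were higher and 0 lower, beside 528 and 348 of the 13850 genes tested. With quantile normalization 3 of the 35 were higher and 0 lower, beside 491 and 337 of the 13850. Over all genes, 40.6% of the calls were higher under the authors' scaling, 60.3% by median of ratios and 59.3% by quantile normalization.

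**Figure D1:**
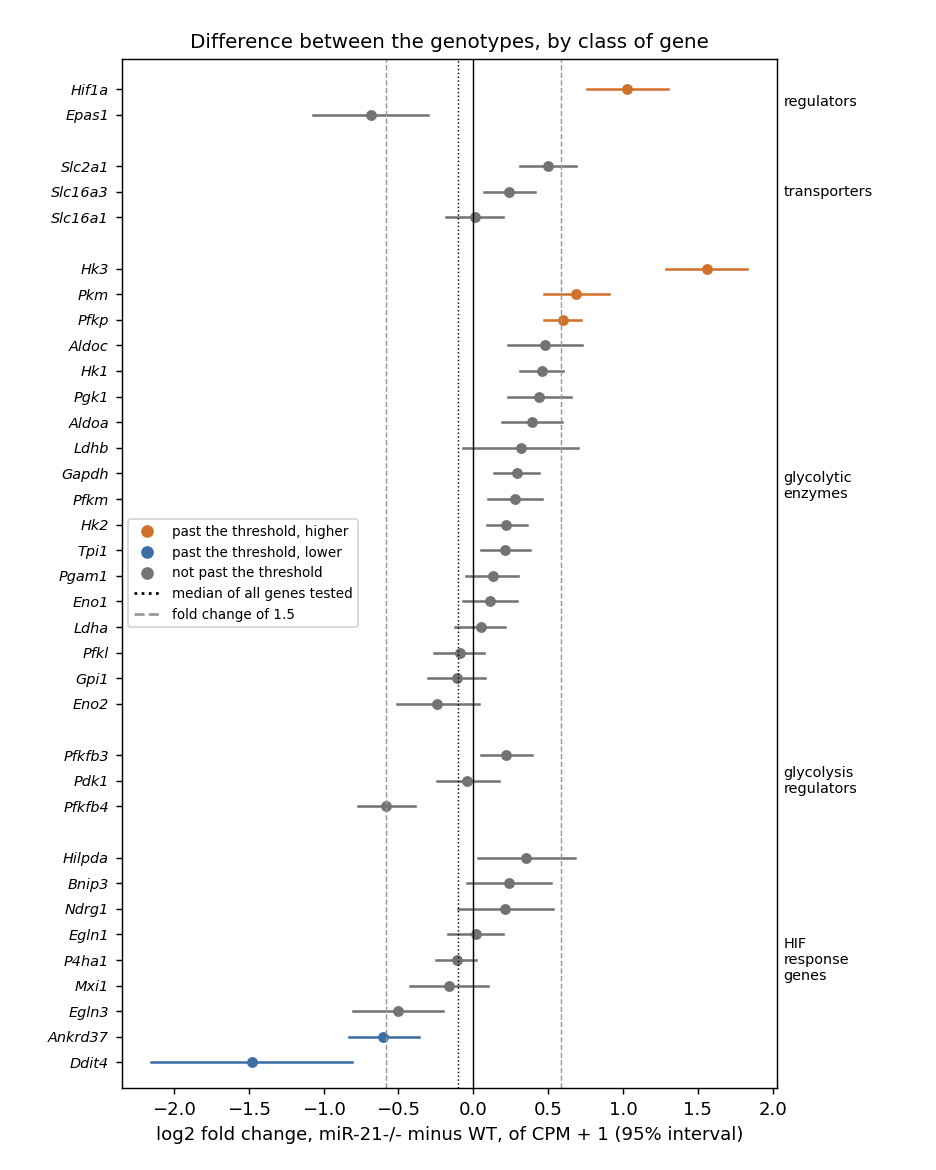
Log2 fold change of CPM + 1, miR-21-/- minus WT, for each of the 35 genes by class, with 95% intervals from limma (n = 4 per genotype). Hk3 at 1.56 and Hif1a at 1.03 lie farthest to the right and Ddit4 at -1.48 farthest to the left, while 15 of 18 glycolytic enzymes lie right of 0.

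The stretches upstream of the 6 genes past the threshold are shown because the HIF core element can be read in them. Each is the 250 bases before an annotated start (RefSeq, GRCm38.p6), 5′ to 3′ on the gene's strand, with matches to ACGTG or GCGTG on either strand in capitals (CACGT and CACGC are their complements, and overlapping matches to both strands are capitalized as 1 block). Matches are counted by their central CG, so that CACGTG, which reads ACGTG on both strands, counts as 1. They are Hif1a on chr12:73907617-73907866 (plus strand), Hk3 on chr13:55021386-55021635 (minus), Pfkp on chr13:6648772-6649021 (minus), the second of 2 starts of Pkm on chr9:59656977-59657226 (plus), Ddit4 on chr10:59951771-59952020 (minus) and Ankrd37 on chr8:45999851-46000100 (minus). In the coordinates of the deposited table (mm10), the genes span chr12:73901375-73947530 for Hif1a, chr13:55005985-55021385 for Hk3, chr13:6579768-6648777 for Pfkp, chr9:59656368-59679375 for Pkm, chr10:59949669-59951834 for Ddit4 and chr8:45996902-46005707 for Ankrd37. The stretches of Hif1a, Pkm and Ankrd37 thus lie inside those spans, which begin farther upstream, those of Pfkp and Ddit4 overlap the edge of the span, and that of Hk3 lies next to it.
Hif1a: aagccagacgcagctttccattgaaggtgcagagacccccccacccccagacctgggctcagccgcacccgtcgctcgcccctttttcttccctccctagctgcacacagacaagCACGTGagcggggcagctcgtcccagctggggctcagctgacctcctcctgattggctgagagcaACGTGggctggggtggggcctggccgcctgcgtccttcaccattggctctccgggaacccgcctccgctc
Hk3: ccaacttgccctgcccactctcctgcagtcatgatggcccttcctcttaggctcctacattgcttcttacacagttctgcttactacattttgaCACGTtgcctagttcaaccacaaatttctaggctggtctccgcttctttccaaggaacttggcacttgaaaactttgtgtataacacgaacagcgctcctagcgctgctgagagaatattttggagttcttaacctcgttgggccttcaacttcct
Pfkp: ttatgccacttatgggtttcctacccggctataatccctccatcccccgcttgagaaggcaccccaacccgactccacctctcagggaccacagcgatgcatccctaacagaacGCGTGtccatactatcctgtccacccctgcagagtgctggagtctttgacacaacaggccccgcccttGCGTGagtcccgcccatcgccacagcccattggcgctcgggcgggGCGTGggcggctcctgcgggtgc
Pkm: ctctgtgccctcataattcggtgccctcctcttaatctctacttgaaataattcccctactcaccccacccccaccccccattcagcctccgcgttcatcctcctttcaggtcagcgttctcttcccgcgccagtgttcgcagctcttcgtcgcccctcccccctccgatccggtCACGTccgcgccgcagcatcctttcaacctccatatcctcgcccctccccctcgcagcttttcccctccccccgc
Ddit4: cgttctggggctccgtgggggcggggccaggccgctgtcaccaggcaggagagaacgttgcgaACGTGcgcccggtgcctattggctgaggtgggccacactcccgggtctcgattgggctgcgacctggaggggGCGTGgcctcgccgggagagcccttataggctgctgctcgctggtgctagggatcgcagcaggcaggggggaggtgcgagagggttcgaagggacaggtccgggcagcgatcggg
Ankrd37: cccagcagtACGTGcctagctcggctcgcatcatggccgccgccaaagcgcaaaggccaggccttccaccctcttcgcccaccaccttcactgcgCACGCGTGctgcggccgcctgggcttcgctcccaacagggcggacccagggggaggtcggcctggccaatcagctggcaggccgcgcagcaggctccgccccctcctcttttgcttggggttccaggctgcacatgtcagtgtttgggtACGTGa

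The stretch of Ankrd37 holds 4 matches, that of Pfkp 3, those of Hif1a and Ddit4 2 each and those of Hk3 and Pkm 1 each, while the first start of Pkm (chr9:59656326-59656575) has 0, so that the element was present upstream of genes that rose and of genes that fell. RefSeq starts were matched for 33 of the 35 genes, all but Epas1 and Ndrg1, and 30 of the 33 (90.9%) had a match at 1 start or more, beside 41.5% of 27025 genes. Counted by start, 39 of 49 stretches (79.6%) held a match, beside 38.6% of 32851. With ACGTG alone the shares were 63.6% of the 33 genes and 18.5% of all genes. The background holds all genes with an annotated start, whether or not they were tested here. Because the 35 genes were listed as glycolysis and hypoxia response genes, a higher share can follow from the list itself. Nothing about these samples is read from it. Ldha, with 3 ACGTG matches at its first start, had a log2 fold change of 0.05. A match is a description of the letters and not a site shown to be bound.

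The regulators moved apart. Hif1a was at 276, 208, 236 and 193 CPM in WT replicates 1 to 4 and at 561, 436, 445 and 425 CPM in miR-21-/- replicates 1 to 4. All miR-21-/- samples lay above all WT samples, and replicate 1 was the highest of them. The log2 fold change was 1.03 (SE 0.12, 95% interval 0.76 to 1.30; limma, adjusted p = 0.000248). Epas1, which encodes HIF-2α, was a low gene, at 3.14, 4.12, 4.55 and 2.39 CPM in WT against 2.31, 1.35, 1.5 and 2.08 CPM in miR-21-/- TAMs. Its groups did not overlap, and its log2 fold change of -0.68 did not pass the threshold (limma, adjusted p = 0.013). It did without WT replicate 4, at -0.82 (limma, adjusted p = 0.00426), and with arrayWeights, which weighs samples by their spread, at -0.77 (limma, adjusted p = 0.00446). Per kilobase of exon, Hif1a was at 38.7 CPM in WT against 79.2 CPM in miR-21-/- TAMs, and Epas1 at 0.635 and 0.324 CPM.

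Of the transporters, Slc2a1, the glucose transporter GLUT1, was at 127, 107, 141 and 108 CPM in WT against 165, 174, 179 and 166 CPM in miR-21-/- TAMs. The groups did not overlap, and the log2 fold change of 0.50 (SE 0.086) passed the adjusted p (limma, 0.00185) but not the fold limit. After rescaling by the median of ratios it was 0.62 and past both. Slc16a3, the lactate exporter MCT4, reached 139 to 166 CPM in WT against 166 to 198 CPM in miR-21-/- TAMs, with a log2 fold change of 0.24 (limma, adjusted p = 0.0356). Slc16a1 (MCT1) was at 31.4 to 40.1 and 34.7 to 40.5 CPM, and its difference of 0.01 had a 95% interval of -0.18 to 0.20.

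Among the enzymes, the first step of the chain showed the largest change. Hk3, a hexokinase of myeloid cells, was at 191, 156, 244 and 193 CPM in WT against 572, 646, 513 and 560 CPM in miR-21-/- TAMs. The lowest miR-21-/- sample was thus above the highest WT sample by more than the range within either genotype. The log2 fold change was 1.56 (SE 0.12, 95% interval 1.29 to 1.83; limma, adjusted p = 2.42e-05). The more widely expressed hexokinases had smaller differences. Hk1 was at 81.6 to 97.3 CPM in WT against 114 to 126 CPM in miR-21-/- TAMs, and its log2 fold change of 0.46 passed the adjusted p (limma, 0.000701) but not the fold limit. Hk2, a classic HIF-1 target, was at 107 to 129 and 134 to 142 CPM, without overlap, with a log2 fold change of 0.22 (limma, adjusted p = 0.0174).

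Phosphofructokinase, the committed step, was split by isoform. The platelet-type gene Pfkp was at 154, 153, 175 and 156 CPM in WT against 238, 245, 238 and 245 CPM in miR-21-/- TAMs. The spread was small in both groups, and the log2 fold change was 0.60 (SE 0.055; limma, adjusted p = 6.33e-05). It sat just above the fold limit of 0.585. Without WT replicate 1 or without WT replicate 2 it was 0.58, with adjusted p of 0.000326 and 0.000389 in limma, and then did not pass the fold limit, nor did it at 0.57 with quantile normalization and at 0.57 with a pseudocount of 10. The liver-type gene Pfkl was at 119 to 149 and 116 to 129 CPM, a log2 fold change of -0.09 with an interval of -0.26 to 0.07, which turned to 0.02 after rescaling by the median of ratios. The muscle-type gene Pfkm was at 9.7 to 11.1 and 11.6 to 14.1 CPM, with a log2 fold change of 0.28 (limma, adjusted p = 0.0232).

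Pkm, the pyruvate kinase gene of most tissues, was at 1307, 1151, 1481 and 1267 CPM in WT against 2072, 2368, 1952 and 1986 CPM in miR-21-/- TAMs. It was the most abundant of the 35 genes per kilobase of exon, at 260 CPM in WT against 419 CPM in miR-21-/- TAMs. Its log2 fold change was 0.69 (SE 0.099; limma, adjusted p = 0.000731), and 0.58 with quantile normalization, under the fold limit. It also did not pass with low genes kept in the fit (limma, adjusted p = 0.00615). Reads of its M1 and M2 splice forms are not separated in a value per gene. AC160637.1, a gene annotated inside Pkm on the same strand, had means of 98.9 and 150 CPM, and reads could be divided between them.

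The enzymes between these steps had log2 fold changes that did not pass the threshold. Aldoc was at 12.2 to 18.1 CPM in WT against 20.2 to 22.7 CPM in miR-21-/- TAMs (log2 fold change 0.48; limma, adjusted p = 0.00836). It passed with quantile normalization, at 0.60, and after rescaling by the median of ratios, at 0.59. The major aldolase Aldoa was at 647 to 849 and 882 to 1032 CPM (0.39; limma, adjusted p = 0.00821). Pgk1, which makes the first ATP of the chain, was at 177 to 221 and 239 to 313 CPM (0.44; limma, adjusted p = 0.00529), and Gapdh at 237 to 258 and 281 to 340 CPM (0.29; limma, adjusted p = 0.00724). The groups of these 4 genes did not overlap. Gapdh is often used as a reference transcript, and its mean was 1.23 times as high in miR-21-/- TAMs.

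The remaining enzymes overlapped between the genotypes. Tpi1 was at 348 to 420 CPM in WT against 408 to 471 CPM in miR-21-/- TAMs (0.21; limma, adjusted p = 0.0493), Pgam1 at 293 to 349 and 308 to 384 CPM (0.13) and Eno1 at 320 to 401 and 351 to 398 CPM (0.11). Gpi1, the isomerase after hexokinase, was at 368 to 454 and 328 to 397 CPM, with a log2 fold change of -0.11 that turned to 0.01 after rescaling by the median of ratios. Ldha, which makes lactate and is a standard HIF-1 target, was at 524, 523, 615 and 545 CPM in WT against 525, 612, 572 and 569 CPM in miR-21-/- TAMs. Its log2 fold change was 0.05 with a 95% interval of -0.12 to 0.21, and -0.01 with quantile normalization. Ldhb, at 0.782 to 1.91 and 1.24 to 2.14 CPM, and Eno2, at 0.936 to 1.48 and 0.709 to 1.11 CPM, were low genes and had log2 fold changes of 0.32 and -0.24.

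Several of these enzymes have near-identical copies that also drew reads. Pgk1-rs7 averaged 219 CPM beside 232 CPM for Pgk1, Eno1b 318 CPM beside 357 CPM for Eno1, Pgam1-ps2 75.1 CPM beside 328 CPM for Pgam1, Aldoart1 44.8 CPM beside 841 CPM for Aldoa and Ldha-ps2 9.3 CPM beside 561 CPM for Ldha. The split between parent gene and copy is therefore uncertain. With copies added to the parent, a choice made after the data were seen, the log2 fold changes were 0.44 for Pgk1, 0.11 for Eno1, 0.14 for Pgam1, 0.39 for Aldoa and 0.05 for Ldha, and the sum for Pgk1 passed the adjusted p (limma, 0.004) but not the fold limit. Senp1 overlaps Pfkm, Pitrm1 overlaps Pfkp, Ufsp2 overlaps Ankrd37 and Iffo1 overlaps Gapdh on the other strand, and whether counting used the strand is not given in the sources used here.

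In total, 15 of 18 glycolytic enzymes had a positive log2 fold change, where 33.2% of all genes tested did, and their median was 0.28 beside -0.10. After rescaling by the median of ratios 17 of 18 were positive and by quantile normalization 14 of 18, where 50.2% and 48.7% of all genes tested were. The groups did not overlap for 10 of the 18 enzymes, all of them higher in miR-21-/- TAMs. Of the 13850 genes tested, 1307 were higher and 3556 lower without overlap, 35.1% in either direction. After rescaling by the median of ratios, 2249 were higher and 2047 lower without overlap. WT replicate 3, the sample of lowest depth, was the highest WT sample for all 18 enzymes and for 26 of the 35 genes. Without it, the median was 0.31 and 14 of 18 enzymes did not overlap, beside 38.9% of all genes tested in either direction. This sample was singled out from these values. Leaving out a sample can only keep or raise the count without overlap, so that nothing is read from the rise.

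**Figure D2:**
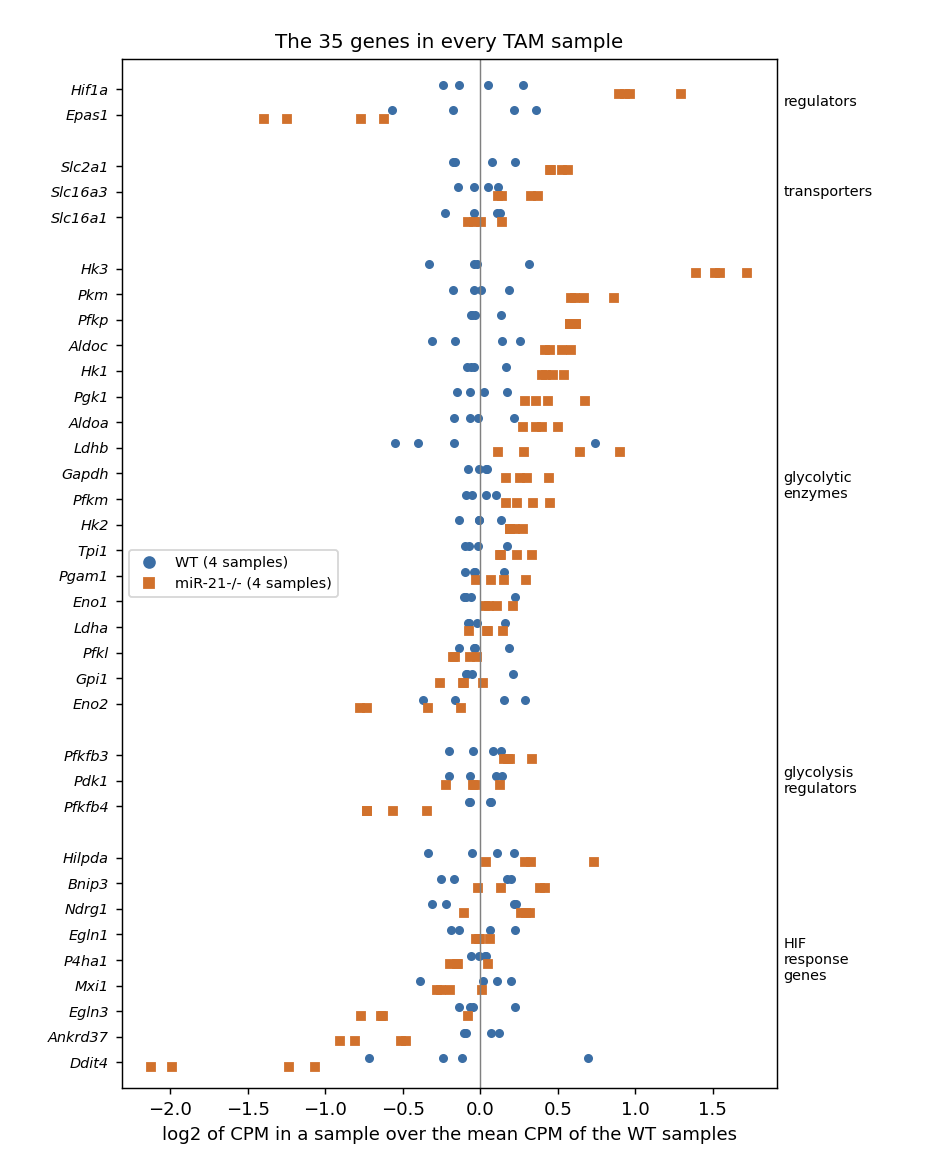
Level of each of the 35 genes in every sample as the log2 of its CPM over the mean of the 4 WT samples. Most enzymes show miR-21-/- samples to the right of WT samples, with Hk3 fully apart, whereas the HIF response genes spread to both sides and Ddit4 reaches farthest left.

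Shares within enzyme families moved with these differences. Taken per kilobase of exon, Hk3 was 59.2% to 66.7% of hexokinase transcripts in WT and 79.6% to 82.5% in miR-21-/- TAMs, while Hk2 went from 21.8% to 27.4% in WT to 10.6% to 12.8%. The summed hexokinase level was 71.6 to 99.2 CPM per kilobase in WT and 175 to 213 in miR-21-/- TAMs. Pfkp was 33.8% to 35.7% of phosphofructokinase transcripts in WT and 44% to 45.9% in miR-21-/- TAMs, and Pfkl 54.5% to 57.6% and 43.8% to 46.6%. The order of these 2 isoforms depends on the exon lengths used, since in CPM not divided by length Pfkp was above Pfkl in every sample. Ldha made up 99.1% to 99.7% of lactate dehydrogenase transcripts in every sample.

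Ratios of CPM between 2 genes of 1 sample do not depend on a factor that scales the whole sample, such as the median of ratios. Of 8 such ratios, 6 did not overlap between the genotypes, where 35.1% of all single genes tested did not. Each of the 6 had p = 0.0286 in a two-sided exact permutation test over the 35 ways to divide the samples 4 and 4. It is the smallest p this design allows, and any ratio without overlap gets it. The adjusted p over the 8 ratios was 0.0381. The pairs were chosen with earlier results of these data known. The share without overlap among other pairs of genes was not computed. Hk3/Hk1 was 1.91 to 2.51 in WT and 4.51 to 5.13 in miR-21-/- TAMs, and Hk2/Hk1 was 1.27 to 1.43 and 1.07 to 1.19. Pfkp/Pfkl was 1.18 to 1.32 and 1.89 to 2.09. Hif1a/Epas1 was 50.5 to 87.9 and 204 to 323. Egln3/Egln1, of prolyl hydroxylase genes, was 0.404 to 0.469 and 0.264 to 0.398, and Pfkfb3/Pfkfb4, of glycolysis regulators, was 1.95 to 2.62 and 3.31 to 4.91. Slc16a3/Slc16a1 (adjusted p = 0.229) and Ldha/Ldhb (adjusted p = 0.163) overlapped between the genotypes in the same exact permutation test.

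The 3 glycolysis regulators did not move together. Pfkfb3 and Pfkfb4 encode bifunctional enzymes that set fructose 2,6-bisphosphate, the activator of phosphofructokinase. Pfkfb3, whose product strongly favors synthesis, was at 161 to 203 CPM in WT against 205 to 233 CPM in miR-21-/- TAMs, with a log2 fold change of 0.22 (limma, adjusted p = 0.0508). Pfkfb4 was at 75, 82, 74.7 and 82.3 CPM in WT against 61.9, 47.3, 47.4 and 53.2 CPM in miR-21-/- TAMs. All miR-21-/- samples were below all WT samples, and the log2 fold change of -0.58 (SE 0.086; limma, adjusted p = 0.000846) lay just inside the fold limit. It passed that limit without WT replicate 1 at -0.60, without WT replicate 3 at -0.60, without miR-21-/- replicate 1 at -0.66 and without miR-21-/- replicate 4 at -0.59, with adjusted p in limma of 0.00211, 0.00263, 0.000279 and 0.00258. Pdk1, which keeps pyruvate out of mitochondria, was at 90.9 to 115 and 89.6 to 114 CPM, with a log2 fold change of -0.04 whose sign changed under both rescalings.

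Of the 9 HIF response genes, 2 fell and 0 rose past the threshold, beside 4.23% and 2.89% of all genes tested, and 4 of the 9 had positive log2 fold changes. Ddit4, a stress-induced inhibitor of mTORC1 (REDD1), was at 55.6, 77.3, 84.2 and 148 CPM in WT against 21, 23, 43.6 and 38.8 CPM in miR-21-/- TAMs. The groups did not overlap, but WT replicate 4 stood well above the other WT samples. The log2 fold change was -1.48 (SE 0.3, 95% interval -2.15 to -0.81; limma, adjusted p = 0.00444). Ddit4 did not pass the threshold in 13 of 17 alternatives. Over all 17, log2 fold changes were -1.68 to -1.22 and adjusted p 0.000527 to 0.026 in limma. Among the 13 were all fits without 1 sample other than WT replicate 1: the adjusted p was 0.0112, 0.0136 and 0.00573 without WT replicates 2, 3 and 4, and 0.0132, 0.0148, 0.00507 and 0.0063 without miR-21-/- replicates 1 to 4. The 16 genes of the dissociation and stress list, immediate early and heat shock genes, summed to 3203 to 5425 CPM in WT against 3367 to 4184 CPM in miR-21-/- TAMs, with overlap. Of these 16 genes, 13 had a negative log2 fold change, with a median of -0.36 beside -0.10 over all genes tested, 8 had an unadjusted p under 0.05, a share near the 46.4% of all genes tested, and 0 passed the threshold in limma. Jund, at -0.46, passed the limit on the adjusted p (0.00355 in limma) but not that on the fold change. The part of these genes in the difference was not tested.

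Ankrd37, a small ankyrin repeat gene known as a HIF-1 target, was at 9.66, 9.74, 10.9 and 11.3 CPM in WT against 5.95, 5.56, 7.3 and 7.46 CPM in miR-21-/- TAMs. The groups did not overlap, and the log2 fold change was -0.60 (SE 0.1; limma, adjusted p = 0.00205). It did not pass in 10 of 17 alternatives. Over all 17, log2 fold changes were -0.66 to -0.30 and adjusted p 0.00177 to 0.0097 in limma. Without WT replicates 2, 3 and 4 the adjusted p was 0.00541, 0.00767 and 0.00531, and without miR-21-/- replicates 1 and 2 it was 0.0065 and 0.00647 in limma. On both rescaled sets the counts of this class past the threshold were 0 higher and 0 lower.

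The prolyl hydroxylase genes, whose products mark HIF-α for degradation and which are themselves induced by HIF, differed from each other. Egln3 was at 28.7, 28.3, 34.5 and 26.9 CPM in WT against 19.2, 19, 28 and 17.4 CPM in miR-21-/- TAMs. Replicate 3 of miR-21-/- was within the WT range, and the log2 fold change of -0.50 did not pass the threshold (limma, adjusted p = 0.0172). Without that sample it was -0.64 and passed (limma, adjusted p = 0.00167). Egln1 was at 59 to 78.3 and 65.9 to 70.2 CPM, a log2 fold change of 0.02 with an interval of -0.17 to 0.20.

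The other 5 HIF response genes overlapped between the genotypes. Hilpda, which blocks lipolysis at lipid droplets, was at 35.4 to 51.8 CPM in WT against 45.8 to 74.1 CPM in miR-21-/- TAMs (log2 fold change 0.35; limma, adjusted p = 0.0861). Bnip3, a mitophagy receptor, was at 54.1 to 73.9 and 63.9 to 86.2 CPM (0.24), and Ndrg1 at 132 to 192 and 152 to 204 CPM (0.21). P4ha1, a subunit of collagen prolyl hydroxylase, was at 144 to 154 and 131 to 155 CPM (-0.11), and Mxi1, a MYC antagonist, at 55.9 to 83.9 and 60.4 to 73.8 CPM (-0.16). Intervals for these 5 genes all reached above 0, and the highest bound was 0.68, for Hilpda. The 9 log2 fold changes had a median of -0.11 beside -0.10 over all genes tested.

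**Figure D3:**
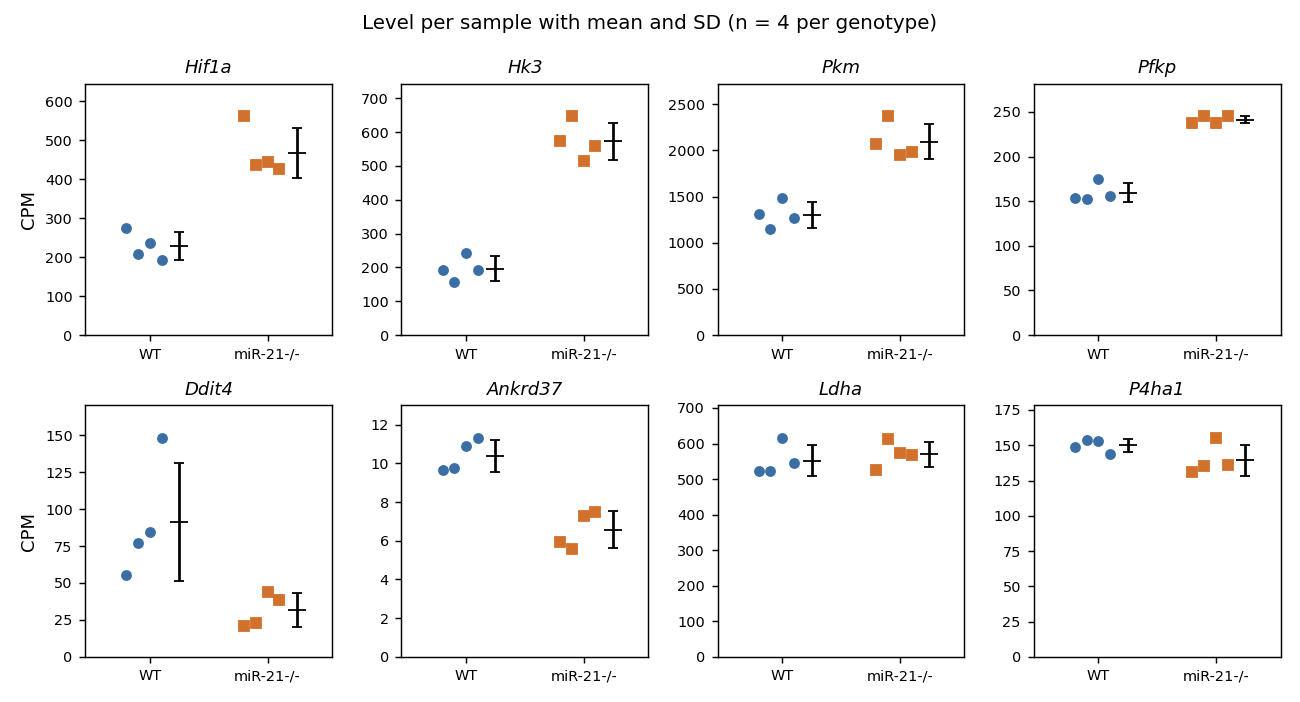
CPM in each of the 4 WT and 4 miR-21-/- samples, on axes from 0, with mean and SD, for the 6 genes past the threshold and for Ldha and P4ha1. Hif1a, Hk3, Pkm and Pfkp are higher in all miR-21-/- samples, Ddit4 and Ankrd37 lower, and Ldha and P4ha1 overlap.

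A score per sample, the mean over a class of log2(CPM + 1) centered on each gene's mean of the 8 samples, summarizes this without a test. For the 18 glycolytic enzymes it was -0.20, -0.27, 0.04 and -0.21 in WT replicates 1 to 4 and 0.12, 0.26, 0.12 and 0.14 in miR-21-/- replicates 1 to 4, a difference of 0.32. WT replicate 3 came closest to the miR-21-/- samples. For the 9 HIF response genes it was 0.04, 0.01, 0.27 and 0.13 in WT and -0.30, -0.18, 0.13 and -0.10 in miR-21-/- TAMs, a difference of -0.22 with overlap between the groups, which was -0.11 after rescaling by the median of ratios. Without Ddit4, left out after its values were seen, the difference of the other 8 genes was -0.07, beside -0.10 over all genes tested. WT replicate 3 was thus highest of the WT samples in both scores, and miR-21-/- replicate 3 was the highest of its group in the second. Over all 35 genes the difference was 0.13.

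**Figure D4:**
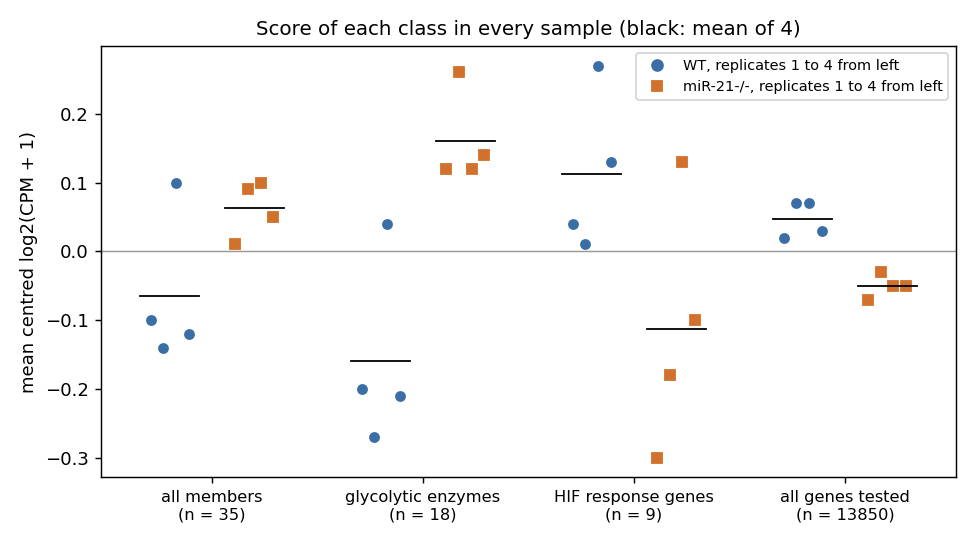
Mean centered log2(CPM + 1) per sample for all 35 genes, the 18 glycolytic enzymes, the 9 HIF response genes and the 13850 genes tested, with black bars for the mean of 4 samples. The enzyme score is separate between the genotypes with a difference of 0.32, and the HIF response score overlaps with a difference of -0.22, which is -0.07 without Ddit4.

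Genes of the same pathways outside the 35 were compared in the same way. Of 12 tested genes for HIF partners and oxygen sensing, such as Arnt, Vhl and Egln2, 0 passed the threshold in limma and 6 had an unadjusted p under 0.05, beside 46.4% of all genes tested. Their log2 fold changes were -0.25 to 0.26. Of 29 other genes known to rise in hypoxia, 1 was higher and 5 lower, beside 2.89% and 4.23% of all genes tested, a call rate of 20.7% with a median log2 fold change of -0.19. The higher one was Vegfa, the angiogenic factor, at 49.9, 36, 67.8 and 44.5 CPM in WT against 97, 88.6, 107 and 108 CPM in miR-21-/- TAMs (1.03; limma, adjusted p = 0.00102), which did not pass without the filter on low values (limma, adjusted p = 0.00816). The lowest were Tfrc, the transferrin receptor (-1.06), Zfp395 (-0.98) and the chemokine receptor Cxcr4 (-0.96), which was at 119 to 139 CPM in WT against 56.9 to 70.2 CPM in miR-21-/- TAMs.

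Among 15 tested genes for other steps of glycolysis and sugar or lactate transport, 1 was higher and 2 lower, beside the same 2.89% and 4.23% of all genes. Gpd2, the mitochondrial glycerol phosphate dehydrogenase, was at 53.5 to 75.4 CPM in WT against 95 to 108 CPM in miR-21-/- TAMs (0.65; limma, adjusted p = 0.000722), and without WT replicate 1 it was 0.58, under the fold limit (limma, adjusted p = 0.00144). The muscle enolase Eno3 (-0.68; limma, adjusted p = 0.00329) and the glucose transporter Slc2a8 (-0.62; limma, adjusted p = 0.00223) were lower, and neither passed in most fits that left out 1 sample. Without WT replicate 2, for example, the adjusted p was 0.0101 for Eno3 and 0.00813 for Slc2a8. None of the 11 genes of the pentose phosphate pathway, the 12 genes of pyruvate entry into mitochondria or the 12 genes of glycogen and gluconeogenesis passed in limma, where 4, 4 and 7 had an unadjusted p under 0.05, beside 46.4% of all genes tested. Their median log2 fold changes were -0.08, 0.03 and -0.05. Of 16 cell cycle genes, 0 passed in limma and 1 had an unadjusted p under 0.05.

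**Figure D5:**
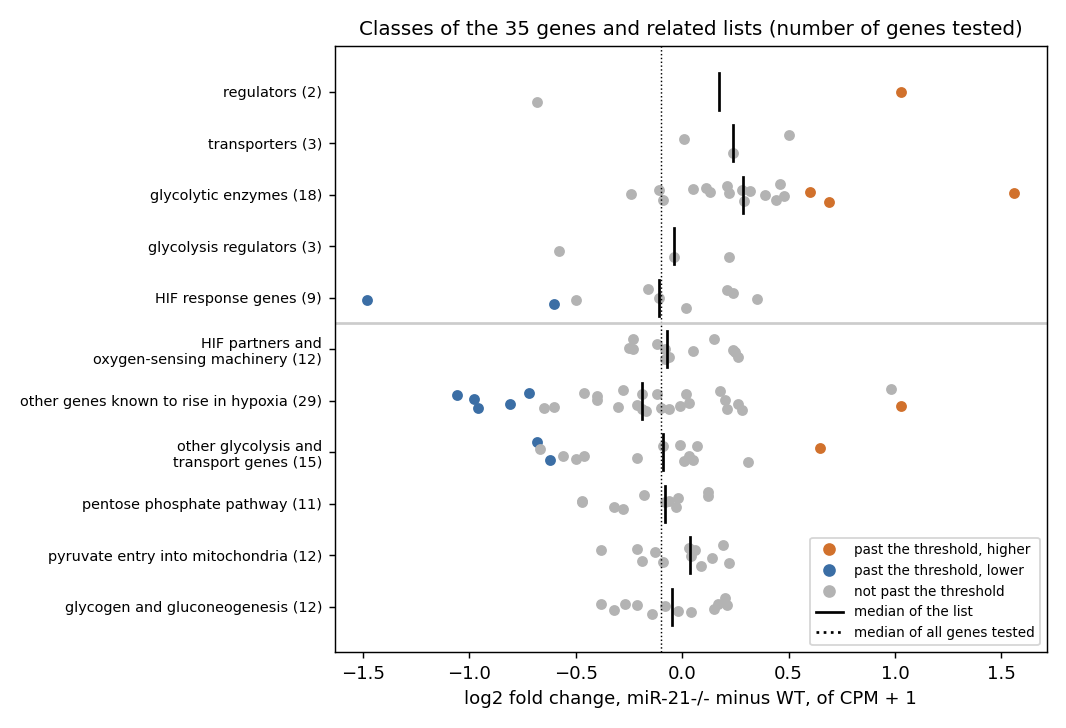
Log2 fold change of CPM + 1, miR-21-/- minus WT, of each tested gene in the 5 classes of the 35 genes (above the gray line) and in 6 related lists, with the median of each. The glycolytic enzymes have a median of 0.28, and the 6 related lists have medians of -0.19 to 0.03, beside -0.10 for all genes tested.

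Sites for the deleted miRNA were sought in the 35 genes. Mature miR-21a-5p (RefSeq, GRCm38.p6, chr11:86584120-86584141, minus strand, inside Mir21a) is shown with bases 2 to 8, the seed, in capitals.
miR-21a-5p: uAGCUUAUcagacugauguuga

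None of the longest annotated 3′ UTRs of the 35 genes (GENCODE vM21) held a site of 8 bases, pairing to the seed with an A opposite base 1, beside 2.31% of 11480 tested genes with a 3′ UTR. Sites of 7 bases were found in 3 of 35 (8.57%), beside 13% for a site of 7 or 8 bases in all tested genes, and with 35 genes these shares are near the background. The 3 sites are printed with 10 bases on either side and the paired bases in capitals, on the plus strand at chr11:120958984-120958990 in Slc16a3, chr15:98132342-98132348 in Pfkm and chr10:59372109-59372115 in P4ha1.
Slc16a3: gaagtatagcATAAGCTgttcactgtg
Pfkm: tttcctaaaaATAAGCTttatttattt
P4ha1: ctcccttgggATAAGCTtcggggaatt

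These 3 genes had log2 fold changes of 0.24, 0.28 and -0.11, none past the threshold. The genes past the threshold, Hif1a, Hk3, Pkm, Pfkp, Ddit4 and Ankrd37, held neither kind of site in that UTR.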

How the data were processed

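RNA-Seq libraries of mRNA from sorted TAMs (4 WT, 4 miR-21-/-) were processed by the authors. The submitters' processing notes name STAR, Partek 7.0 and mm10, and counting rule and strand are not given in the sources used here. The deposited values were taken to be CPM raised by 0.0001. All value columns were used (0 left out). Values of up to 20 reads were whole within 0.02 reads in 73.7% to 74.6% of cases, so that whole reads were not recovered and count tests were not run. The labels name no batch or date. Precision is limited by n = 4 and, for low genes, by reads. Whether replicates are separate mice is not given for each sample in the sources used here, and p-values measure only the spread between these samples. Pearson's r of log2(CPM + 1) was 0.988 to 0.995 within and 0.97 to 0.981 between genotypes, and no 2 columns were identical.

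From the deposited CPM values, log2(CPM + 1) entered a two-sided limma fit (limma 3.58.1, R 4.3.3, trended eBayes) over the 13850 genes averaging at least 1 per 1e+06 of the column totals, with Benjamini-Hochberg adjustment over all of them. Fold changes on this scale understate the change of low genes. Ratios were compared by exact permutation tests. Levels between genes were set per kilobase of the union of exons in GENCODE vM21, where 31 of the 35 genes had the start of the table. The 35 genes, the classes, ratios and lists were chosen with earlier results of these data known. All 35 genes are reported, and of each list at most the 3 highest and 3 lowest past the threshold. The processing was varied by a pseudocount of 0.1 or 10, by dropping the filter or setting it at 5 per 1e+06, by quantile or median-of-ratios scaling, by eBayes with no trend, by arrayWeights, by a replicate block, by omitting 1 sample at a time, by other limits of the threshold and, chosen after seeing the data, by summing near-identical copies. Symbols were not repeated in the table, so that choosing between rows did not apply. Figures were drawn with matplotlib 3.10.9.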

Additional observations from a re-analysis of the deposited data

Results flagged for a closer look

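In 7 of 70 groups of 4 samples (35 genes in each genotype), 1 sample stood apart from the others by more than the 95% limit of Dixon's ratio. Chance exceeds this limit in about 1 in 20 independent groups. These groups are not independent, since all 35 genes come from the same 8 samples, so that the count is not compared with that rate. WT replicate 3 was high for Hk1 (97.3 CPM against 81.6 to 84.1), Gpi1 (454 against 368 to 378), Pfkp (175 against 153 to 156) and Eno1 (401 against 320 to 330). Hif1a in miR-21-/- replicate 1 was at 561 CPM against 425 to 445 in the other samples of that genotype. Ndrg1 in the same sample was at 152 CPM against 196 to 204. Egln3 in miR-21-/- replicate 3 was at 28 CPM against 17.4 to 19.2.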

How the results depend on the processing

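The log2 fold changes of Hif1a and Hk3 remained past the threshold in all 17 alternatives of the fit. Of the 35 genes, 19 kept direction and side of the threshold in every alternative of the fit, 4 lost a call at least once (Pfkp, Pkm, Ddit4, Ankrd37), 5 gained one, and 7 changed sign under 1 or more. Other limits of the threshold are not part of these counts per gene. The count of lower genes among the 35 (2, both HIF response genes) became 0 with a pseudocount of 10, without the filter, with quantile normalization and by median of ratios, and 1 without the trend. In the same order, 201 of 13850, 245 of 30634, 337 of 13850, 348 of 13850 and 525 of 13850 of all genes tested were lower. Leaving out 1 sample gave 3 to 4 higher and 0 to 3 lower genes, 2 to 3 higher and 0 lower enzymes, and 0 to 2 lower and 0 higher HIF response genes. Over all 13823 to 13883 genes tested in those fits, 317 to 390 were higher and 367 to 612 lower. With arrayWeights 0 HIF response genes were lower, beside 675 of 13850 genes tested. At an adjusted p of 0.05 without a fold limit, 14 of the 35 were higher and 5 lower, beside 9.49% and 26.5% of all genes tested, and 11 enzymes were higher. Of the 91 tested genes in the other pathway lists, 2 were higher and 7 lower, beside 2.89% and 4.23% of all genes tested. The higher count became 0 without the filter, beside 270 of 30634 genes. It was 9 at an adjusted p of 0.05 without a fold limit, beside 9.49% of all genes, and 1 to 2 with 1 sample left out. The lower count became 4 with a pseudocount of 10, without the filter and with quantile normalization, 4 to 8 with 1 sample left out, 24 at an adjusted p of 0.05 and 11 at 0.005, both without a fold limit, where 26.5% and 9.68% of all genes were lower. By median of ratios the score difference was 0.24 for all 35 genes, 0.43 for the enzymes and -0.11 for the HIF response genes, the last of which was -0.16 with quantile normalization and with a pseudocount of 10 and, in an alternative chosen after seeing the data, -0.07 without Ddit4.

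Changes of sign were of small values: Gpi1 0.01, Pfkl 0.02, P4ha1 0.00 and Pdk1 0.08 by median of ratios, and Ldha -0.01 and Pdk1 0.00 with quantile normalization. With 1 sample left out, Slc16a1 ranged from -0.06 to 0.06, Egln1 from -0.04 to 0.09 and Pdk1 from -0.10 to 0.02. The causes were not tested. The replicate block gave 4 higher and 2 lower genes, as without it. Same-numbered samples, by the replicate numbers of the labels' descriptions (numbers inside the titles differ and were not tried), had correlations of deviations of 0.08, -0.11, -0.14 and 0.22, and 3 of 8 samples correlated best with their own number, so that the numbers were not taken as pairs. Depth limits Eno2 and Ldhb most, which average near 1 CPM.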
